A study of Mus musculus with 13 samples.

Results

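Semaphorins are secreted or membrane-bound guidance cues, plexins are the receptors that read most of them, and neuropilins are co-receptors that let secreted class 3 semaphorins act through plexins. Plexins carry a GTPase-activating domain inside the cell, and their signals change adhesion and the cytoskeleton in neurons, vessels and immune cells. In blood vessels Plxnd1 and Nrp1 take part in vascular patterning, and in macrophages and other immune cells Sema4d and the class B plexins are known for roles in migration and activation. The 10 genes described here are 5 semaphorins (Sema6a, Sema7a, Sema3c, Sema3g and Sema4d), 3 plexins (Plxnd1, Plxnb2 and Plxna4) and both neuropilins (Nrp1 and Nrp2). They were found by Ensembl gene ID among the 55487 genes of the deposited table, and all 10 were among the 15511 genes that passed the filter on low counts. They were chosen by a list drawn up with the differences between these same libraries known, so their differences below are a description of the members and support nothing beyond them.

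The cells were taken from whole brain of Mus musculus pups with magnetic beads against CD11b, a myeloid integrin, and are labelled microglia, the resident macrophages of the brain. The titles place them on postnatal day 4, while the series text gives a short neonatal span. The 2 groups were control pups (CON) and pups after maternal immune activation (MIA), with 5 retained libraries in each. Another 3 libraries, CON 6, MIA 6 and MIA 7, have titles that mark them as excluded, for a reason not given in the sources used here. All groups shared the same dissociation and sort; the sources used here do not give strain, genotype, sex or the agent used on the dams, nor do they state whether the libraries come from separate animals or litters, so p-values measure only the spread between these libraries.

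Library totals ran from 27900100 to 35593500 counts in the retained CON libraries and from 25719100 to 29823400 in the retained MIA libraries. Levels are in CPM, a gene's count relative to the scaled total of its library, and the lowest count of any of the 10 genes in any library was 19, in Sema3c. The 12 microglial markers checked, among them Csf1r and P2ry12, were at a mean log2 CPM of 10.3 to 10.7 in the retained CON libraries and 9.69 to 10.1 in the retained MIA libraries. Markers of other cells were present as well: the mean of 12 endothelial markers was 5.64 to 6.20 in CON and 6.97 to 7.69 in MIA, with no marker at 0 in any library. CON 1 and CON 2 had low levels of 10 genes that dissociating tissue is known to induce (mean log2 CPM of 6.47 and 6.32, against 8.06 to 8.61 in the other retained libraries) and of 4 erythroid genes (2.34 and 2.97, against 6.96 to 8.20), and the fold changes of the 10 genes are also given with both left out. The library labelled CON 6 had an endothelial mean of 6.96 and a microglial mean of 10.1, outside the range of the 5 retained CON libraries in both, and MIA 6 (6.82 and 10.3) and MIA 7 (6.97 and 10.3) lay below all 5 retained MIA libraries in the endothelial mean and above them in the microglial mean.

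To show the regions just upstream of genes that differed in opposite directions, the 250 bases before the RefSeq start (GRCm38.p6) are printed 5′ to 3′ for Plxnd1 and Sema7a, which were higher in MIA, and for Plxnb2 and Sema4d, which were lower. Capitals mark any match, on either strand, to GGGCGG (GC box) or GAGGAAG (an ETS core of the kind the myeloid factor PU.1 binds). Where the table holds several starts, as for Plxnb2 (2) and Sema4d (3), the most upstream is shown, and the gene counts do not say which start was used.
Plxnd1, chr6:115995006-115995255, minus strand: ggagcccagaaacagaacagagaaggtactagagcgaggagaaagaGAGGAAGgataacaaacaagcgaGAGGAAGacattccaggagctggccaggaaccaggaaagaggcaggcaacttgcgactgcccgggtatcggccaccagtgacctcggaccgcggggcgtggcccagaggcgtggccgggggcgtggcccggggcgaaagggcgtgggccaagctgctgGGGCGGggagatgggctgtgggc
Sema7a, chr9:57939862-57940111, plus strand: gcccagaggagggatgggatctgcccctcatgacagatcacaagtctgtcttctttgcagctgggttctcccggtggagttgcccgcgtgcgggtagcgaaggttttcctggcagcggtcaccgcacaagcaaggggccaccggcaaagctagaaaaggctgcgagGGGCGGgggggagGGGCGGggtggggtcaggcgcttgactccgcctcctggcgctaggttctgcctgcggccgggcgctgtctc
Plxnb2, chr15:89180789-89181038, minus strand: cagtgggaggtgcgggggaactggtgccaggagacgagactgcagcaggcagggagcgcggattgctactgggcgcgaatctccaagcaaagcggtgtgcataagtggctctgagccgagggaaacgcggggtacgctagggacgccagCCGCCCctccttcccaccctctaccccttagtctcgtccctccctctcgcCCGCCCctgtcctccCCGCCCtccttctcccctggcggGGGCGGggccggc
Sema4d, chr13:51756684-51756933, minus strand: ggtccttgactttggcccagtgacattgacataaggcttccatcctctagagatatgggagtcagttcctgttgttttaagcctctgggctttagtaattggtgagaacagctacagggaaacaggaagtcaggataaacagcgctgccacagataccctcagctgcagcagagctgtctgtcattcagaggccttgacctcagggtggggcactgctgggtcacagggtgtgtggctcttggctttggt

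The Plxnd1 window held 2 matches to GAGGAAG and 1 to GGGCGG, the Sema7a window 2 matches to GGGCGG, and the Plxnb2 window 4, while the Sema4d window held neither motif. Its GC content was 52%, against 64.8% for Plxnd1, 66.4% for Sema7a and 69.2% for Plxnb2. Bases at this Sema4d start were not found at the beginning of a GENCODE M21 transcript of the gene, while those at start 2, counted from upstream, were. The window of Sema4d start 2 held neither motif, and that of start 3 held 1 match to GGGCGG. RefSeq windows were used for 8 of the 10 genes, 11 windows in all. GGGCGG was in 9 of these 11 windows and in 32.7% of all 32851 windows of the same length, and GAGGAAG in 3 of the 11 and in 10.6% of all. The full set of windows was not matched to the members in expression, and a gene with several starts counts several times. Enrichment of a motif was not tested. The other motifs searched on both strands, CCGGAAG as another ETS core, an AP-1 site and a TATA box, had no match in the 11 windows. Of all windows 6.91% held the ETS core, 4.46% the AP-1 site TGACTCA and 12.4% the TATA box, spelled TATAAA.

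The 10 genes fell into 3 patterns. Sema6a, Plxnd1 and Sema7a were higher in the MIA libraries, Plxnb2 and Sema4d were lower, and Nrp1, Nrp2, Plxna4, Sema3c and Sema3g did not pass the test (edgeR quasi-likelihood test, Benjamini-Hochberg adjusted p under 0.05 over all genes tested). Of all genes tested, 10.3% passed in this comparison, 5.75% as higher and 4.58% as lower. For the same 3 genes all 5 MIA libraries lay above all 5 CON libraries, as they did for 5.59% of all genes tested, and for Plxnb2 and Sema4d all 5 lay below, as for 4.36%. The median log2 fold change was 0.50 over the 10 genes and −0.0085 over all genes tested. In bulk RNA, fewer cells of a type and less RNA per cell cannot be told apart.

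**Figure D1:**
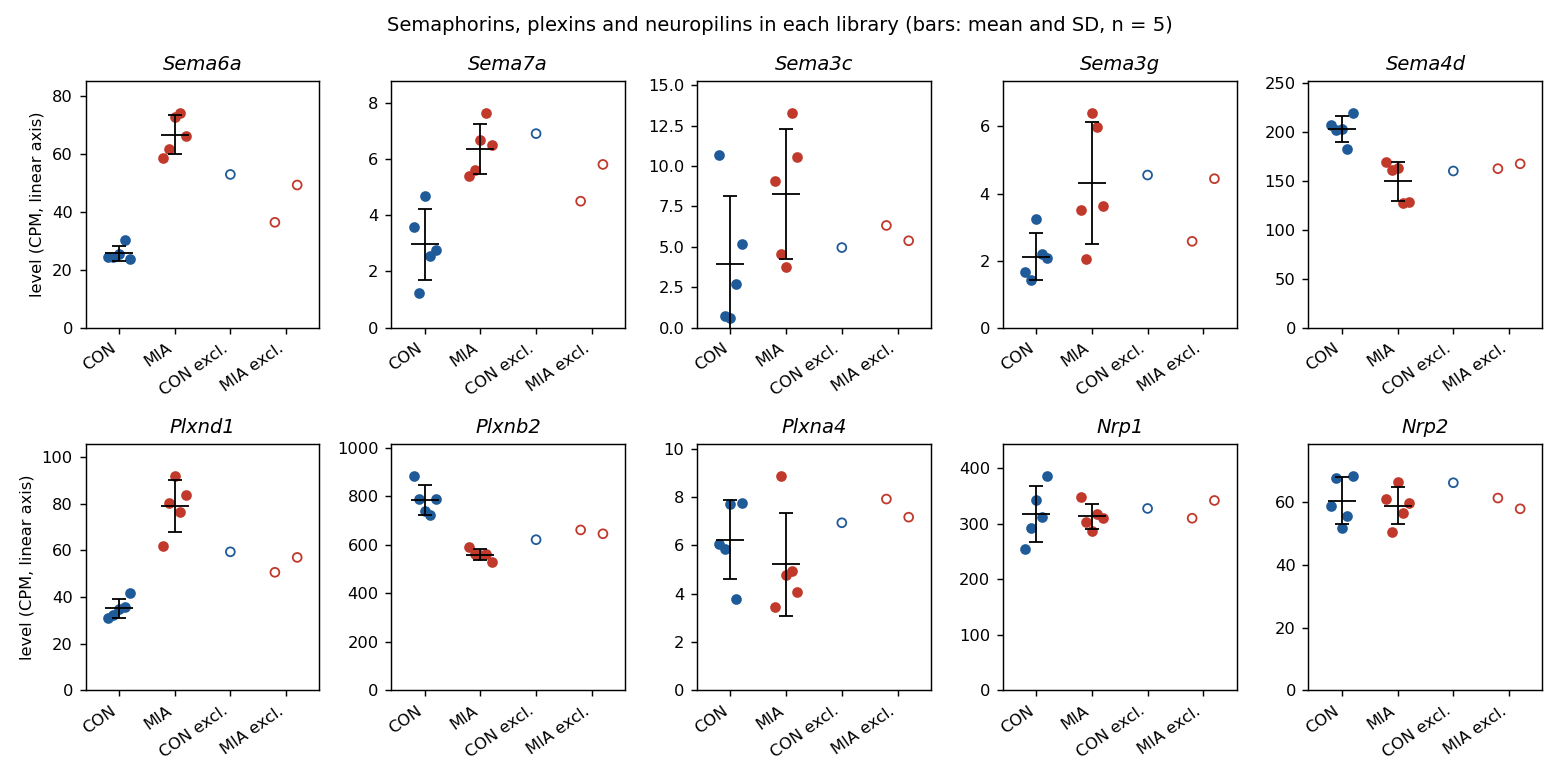
Level of each of the 10 genes in CPM on a linear axis, with filled points for the 5 retained CON (blue) and 5 retained MIA (red) libraries, open points for the 3 libraries marked as excluded, and bars for mean and SD (n = 5; the lower bar of Sema3c in CON is cut at 0). Sema6a, Plxnd1 and Sema7a separate upward in MIA, Plxnb2 and Sema4d downward, and the other 5 genes overlap between the groups.

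Sema6a encodes a transmembrane class 6 semaphorin that binds the A-type plexins Plxna2 and Plxna4. It was at 24.4, 24.3, 25.4, 30.2 and 23.8 CPM in CON 1 to CON 5 and at 58.6, 61.8, 72.5, 74.0 and 66.0 CPM in MIA 1 to MIA 5. The lowest MIA library thus lay well above the highest control, CON 4. Means were 25.6 ± 2.63 and 66.6 ± 6.67 CPM (SD, n = 5 each), a 2.60-fold rise with a log2 fold change of 1.38 ± 0.10 (SE), at an adjusted p of 2.78e-05 in edgeR. With CON 1 and CON 2 left out it was 1.32 ± 0.11 (SE).

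Sema7a encodes a semaphorin tethered to the membrane by a lipid anchor, which binds Plxnc1 and the integrin beta-1 subunit encoded by Itgb1. Its level was low, at 3.59, 1.24, 4.67, 2.55 and 2.78 CPM in CON 1 to CON 5 and 5.40, 5.62, 6.67, 7.63 and 6.50 CPM in MIA 1 to MIA 5. The groups did not overlap, but CON 3 and MIA 1 lay close together. The log2 fold change was 1.10 ± 0.30 (SE), at an adjusted p of 0.0333 in edgeR. This call was lost in 6 of the 10 fits that left out a single library (leaving out CON 4, CON 5, MIA 2, MIA 3, MIA 4 or MIA 5, with edgeR adjusted p of 0.0501 to 0.0912). Its partners Plxnc1 and Itgb1 did not pass, at 8.07 ± 1.88 and 7.82 ± 0.910 CPM for Plxnc1 and 496 ± 76.2 and 531 ± 59.2 CPM for Itgb1 (CON and MIA; SD, n = 5 each).

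The secreted class 3 semaphorins among the members, Sema3g and Sema3c, were scarce. Sema3g, known from endothelium and a ligand of receptors that contain Nrp2, was at 1.66, 1.42, 3.24, 2.19 and 2.08 CPM in CON 1 to CON 5 and 3.51, 2.05, 6.40, 5.98 and 3.64 CPM in MIA 1 to MIA 5. MIA 2 lay within the control range, and the difference of 1.02 ± 0.35 on the log2 scale did not pass (SE; adjusted p in edgeR 0.0842). It passed without MIA 2 (edgeR adjusted p = 0.0364). Sema3c, a ligand of both neuropilins with Plxnd1, was the most variable of the 10 genes. It was at 10.7, 0.692, 0.583, 2.68 and 5.15 CPM in CON 1 to CON 5 and 9.05, 4.57, 3.78, 13.3 and 10.6 CPM in MIA 1 to MIA 5. CON 1 reached the level of the upper MIA libraries, and the log2 fold change of 1.06 ± 0.74 did not pass (SE; adjusted p in edgeR 0.457). Without CON 1 the estimate was 1.85 ± 0.67 (SE), at an adjusted p of 0.105 in edgeR. The coefficient of variation of Sema3c was 106% in CON and 48.8% in MIA, against 4.02% to 15.8% for Sema6a, Sema4d, Plxnd1, Plxnb2, Nrp1 and Nrp2 in either group.

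Sema4d, also known as CD100, encodes a transmembrane class 4 semaphorin of immune cells that binds class B plexins and the receptor encoded by Cd72. It was at 207, 202, 203, 183 and 220 CPM in CON 1 to CON 5 and at 169, 161, 163, 128 and 129 CPM in MIA 1 to MIA 5. All MIA libraries lay below CON 4, the lowest control, and MIA 4 and MIA 5 lay apart from the other 3 MIA libraries. Means were 203 ± 13.1 and 150 ± 20.1 CPM (SD, n = 5 each), a log2 fold change of −0.44 ± 0.09 (SE), at an adjusted p of 0.00917 in edgeR. Among its receptors, Cd72 was at 6.29 ± 0.846 and 5.13 ± 0.632 CPM (SD, n = 5 each) and Plxnb1 at 12.5 ± 6.57 and 12.4 ± 4.37 CPM, and neither passed.

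Among the receptors, Plxnd1, the vascular plexin that binds Sema3e directly and other class 3 semaphorins through neuropilins, was at 31.0, 32.3, 35.1, 35.7 and 41.7 CPM in CON 1 to CON 5. In MIA 1 to MIA 5 it was at 61.9, 80.4, 91.9, 76.2 and 83.9 CPM, every one above CON 5. It rose 2.24-fold, from 35.2 ± 4.13 to 78.9 ± 11.1 CPM (SD, n = 5 each), a log2 fold change of 1.16 ± 0.11 (SE), at an adjusted p of 9.75e-05 in edgeR. With CON 1 and CON 2 left out the value was 1.06 ± 0.12 (SE). Sema3e itself was at 0.481 ± 0.731 and 0.979 ± 0.732 CPM (SD, n = 5 each) and did not pass.

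Plxnb2 encodes a class B plexin that binds class 4 semaphorins. It was the gene of the family with the highest level per length, and stood at 885, 789, 739, 724 and 791 CPM in CON 1 to CON 5. It was at 591, 562, 557, 561 and 528 CPM in MIA 1 to MIA 5, and these all lay below CON 4, the lowest control. The gene fell by 0.49 ± 0.07 log2 units (SE), with an adjusted p in edgeR of 0.000879, from 786 ± 62.8 to 560 ± 22.5 CPM (SD, n = 5 each). Plxna4, a receptor for class 6 semaphorins and, with neuropilins, for Sema3a, was low at 6.08, 5.87, 7.73, 3.77 and 7.77 CPM in CON 1 to CON 5 and 3.45, 8.88, 4.76, 4.96 and 4.06 CPM in MIA 1 to MIA 5. The groups overlapped, with MIA 2 the highest of all 10 libraries, and the log2 fold change was −0.26 ± 0.28 (SE), at an adjusted p of 0.663 in edgeR. Single libraries moved this estimate, to −0.54 ± 0.25 without MIA 2 and to −0.14 ± 0.29 without MIA 1 (SE), and it passed in neither fit. Exons of the antisense gene Plxna4os3 overlap those of Plxna4 by 110 bases in GENCODE M21. The library kit does not mark strand, so a read wholly within these bases does not itself show its gene of origin. Nrp1 shares 80 exon bases with Mir1903 on the same strand.

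Neither neuropilin passed the test. Nrp1, a co-receptor for Sema3a and for vascular endothelial growth factor, was at 254, 292, 342, 311 and 386 CPM in CON 1 to CON 5 and 348, 304, 287, 316 and 310 CPM in MIA 1 to MIA 5. The MIA libraries lay inside the control range, with a log2 fold change of −0.02 ± 0.10 (SE), at an adjusted p of 0.948 in edgeR. Nrp2, a co-receptor for Sema3c, Sema3f and Sema3g, was at 58.5, 67.7, 51.5, 55.6 and 68.3 CPM in CON 1 to CON 5 and 60.9, 50.4, 66.4, 56.6 and 59.8 CPM in MIA 1 to MIA 5. The groups covered nearly the same range, with a log2 fold change of −0.04 ± 0.10 (SE), at an adjusted p of 0.882 in edgeR. Without CON 1 and CON 2, Nrp1 was at −0.16 ± 0.09 (SE), at an adjusted p of 0.276 in edgeR and Nrp2 at −0.0030 ± 0.11 (SE).

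The libraries marked as excluded lay between the groups rather than with their own label for several of these genes. Sema6a was at 52.9 CPM in CON 6, 36.3 in MIA 6 and 49.2 in MIA 7, above every retained control and below every retained MIA library. Plxnd1 was at 59.4, 50.6 and 57.0 CPM in the same order, again between the ranges, and Plxnb2 was at 622, 662 and 646 CPM, between the ranges as well. Sema4d was at 160, 163 and 168 CPM, inside the retained MIA range in all 3. Sema7a was at 6.90, 4.50 and 5.81 CPM, which put CON 6 and MIA 7 among the retained MIA libraries and MIA 6 among the controls. Sema3c (4.96, 6.32 and 5.38 CPM), Nrp1 (327, 310 and 341 CPM) and Nrp2 (66.1, 61.2 and 57.8 CPM) lay inside the control range.

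With all 13 libraries in the fit, 4.22% of genes passed, and Sema6a (0.99 ± 0.21), Plxnd1 (0.87 ± 0.17), Plxnb2 (−0.37 ± 0.08) and Sema4d (−0.35 ± 0.09) were still called (log2 fold change ± SE, with adjusted p in edgeR of 0.0275, 0.0201, 0.0273 and 0.0419). Sema7a was not (0.73 ± 0.30, SE; edgeR adjusted p = 0.174). With all 13 except CON 1 and CON 2, 0.561% of genes passed and none of the 10. The log2 fold changes were then 0.85 ± 0.24 for Sema6a, 0.74 ± 0.18 for Plxnd1, −0.30 ± 0.08 for Plxnb2 and −0.32 ± 0.10 for Sema4d (SE; edgeR adjusted p of 0.0923, 0.0730, 0.0829 and 0.111). Over all genes that fit had fewer calls as well, 90 in place of 1602. When CON 1 and CON 2 were left out of the 10 retained libraries instead, all 5 calls held. Beside the values above, the log2 fold changes were then 0.92 ± 0.26 for Sema7a, −0.44 ± 0.07 for Plxnb2 and −0.44 ± 0.11 for Sema4d (SE; adjusted p in edgeR of 0.0333, 0.00165 and 0.0170). Sema3c (1.54 ± 0.66), Sema3g (0.77 ± 0.37) and Plxna4 (−0.31 ± 0.33) did not pass there either (adjusted p in edgeR of 0.179, 0.207 and 0.598).

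Endothelial and microglial markers moved with these genes. All 12 endothelial markers were called higher in MIA and their mean log2 CPM rose by 1.36, while 11 of 12 microglial markers were called lower and their mean fell by 0.55. Relative to the endothelial mean, Sema6a was at −1.29 ± 0.19 log2 units in CON and −1.28 ± 0.19 in MIA (± SD over 5 libraries). Plxnd1 was at −0.84 ± 0.14 and −1.04 ± 0.23, and Sema7a at −4.49 ± 0.71 and −4.65 ± 0.20. The rise of these 3 genes was thus about as large as that of the endothelial mean, and the part of endothelial RNA in it was not tested. In CON 6, MIA 6 and MIA 7, Sema6a was at −1.23, −1.63 and −1.34 relative to that mean. The value in MIA 6 was below all 10 retained libraries, of which CON 5 was lowest at −1.55. Plxnd1 was at −1.07, −1.15 and −1.13 in the same order, inside the retained range.

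Plxnb2 and Sema4d kept a like distance to the microglial mean instead. Plxnb2 was at −0.85 ± 0.15 log2 units relative to that mean in CON and −0.79 ± 0.17 in MIA, and Sema4d at −2.80 ± 0.12 and −2.70 ± 0.04 (SD, n = 5 each). Their fall was of the size of the fall of the microglial markers, and the part of the microglial share of the RNA in it was not tested. Nrp1 followed neither: it went from 2.32 ± 0.14 to 0.96 ± 0.34 relative to the endothelial mean and from −2.17 ± 0.27 to −1.63 ± 0.23 relative to the microglial mean. Nrp2 went from −0.06 ± 0.31 to −1.45 ± 0.19 and from −4.56 ± 0.14 to −4.04 ± 0.25 in the same way. The mean of 10 neuronal markers also rose, by 0.80, with 5 of the 10 called higher. That of 10 mural and fibroblast markers rose by 0.45, with 3 of the 10 called higher. Relative to the neuronal mean, Sema6a went from 2.70 ± 0.22 log2 units in CON to 3.27 ± 0.31 in MIA (SD, n = 5 each). Plxnd1 went from 3.15 ± 0.32 to 3.51 ± 0.31 and Sema7a from −0.50 ± 0.62 to −0.11 ± 0.34 in the same way.

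**Figure D2:**
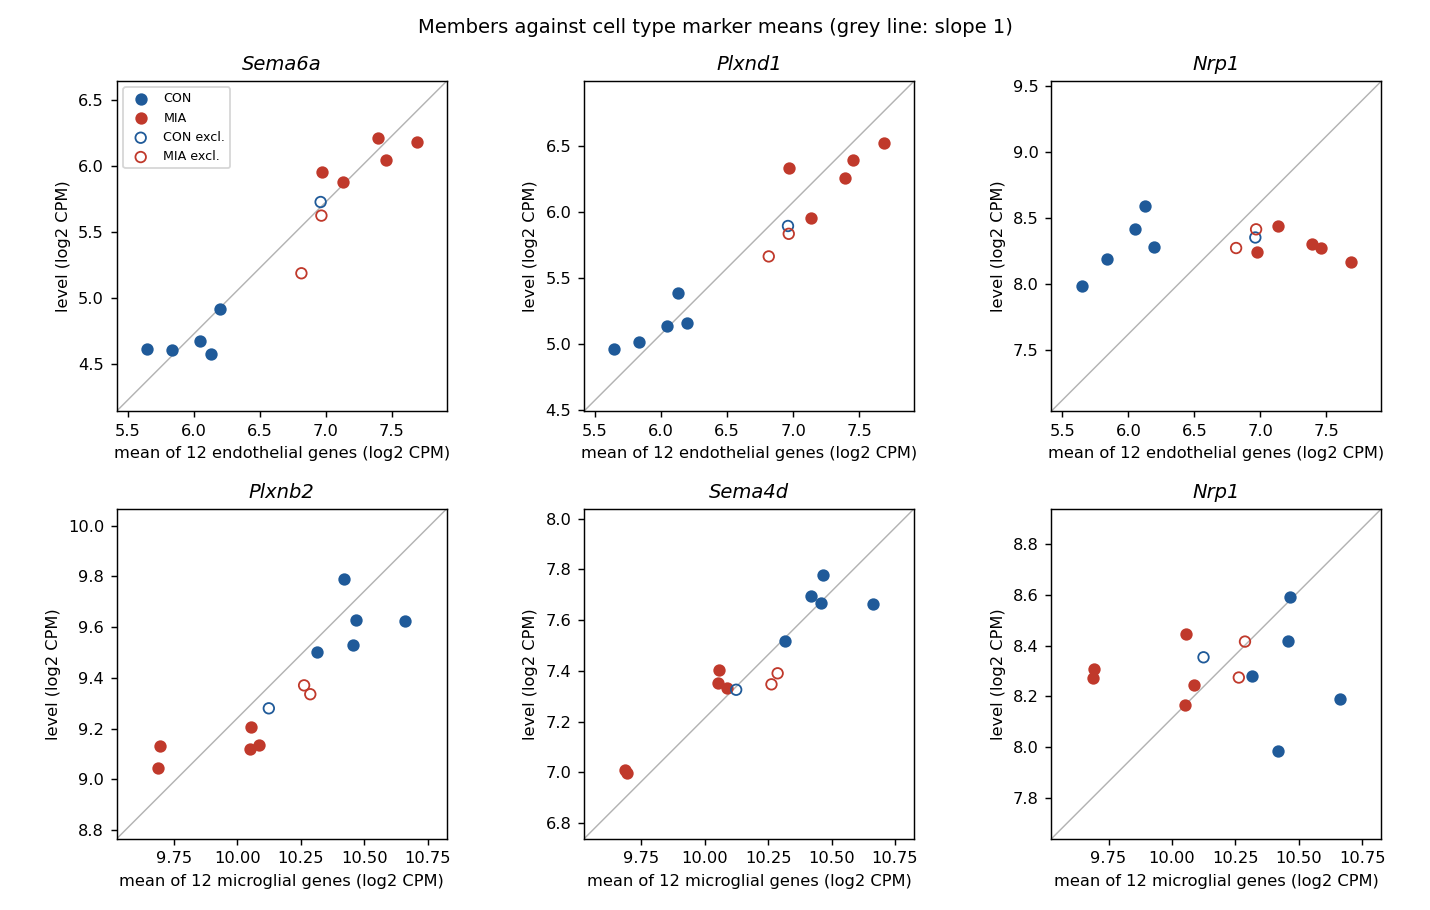
Log2 CPM of Sema6a, Plxnd1 and Nrp1 against the mean of 12 endothelial markers, and of Plxnb2, Sema4d and Nrp1 against the mean of 12 microglial markers, with 1 point per library (filled: retained; open: marked as excluded) and a grey line of slope 1 through the centre of each panel. Sema6a and Plxnd1 run along the line with the endothelial mean and Plxnb2 and Sema4d along it with the microglial mean, while Nrp1 runs along neither.

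Per length, in CPM per kilobase of exon, the order of the 10 genes in CON was Plxnb2, Nrp1, Sema4d, Nrp2, Plxnd1, Sema6a, Sema7a, Sema3c, Sema3g and Plxna4. Plxnb2 was at 102 ± 8.14, well above Nrp1 at 32.4 ± 5.11 and Sema4d at 26.5 ± 1.71 (SD, n = 5 each). The ranges of Nrp1 (25.9 to 39.4) and Sema4d (23.8 to 28.6) overlapped, as did those of Nrp2 (4.35 to 5.76) and Plxnd1 (4.25 to 5.71). Sema6a, at 2.71 to 3.44, lay below both, and the remaining 4 overlapped at the low end. In MIA, Plxnd1 at 10.8 ± 1.52 and Sema6a at 7.58 ± 0.760 stood above Nrp2 at 4.97 ± 0.497 CPM per kilobase.

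Summed over all 31 semaphorin, plexin and neuropilin genes measured, the makeup of the family's RNA differed between the groups. Plxnb2 made up 48.7 ± 1.89% of the summed level per length in CON and 38.9 ± 1.35% in MIA (± SD over 5 libraries). Plxnd1 went from 2.32 ± 0.291% to 5.81 ± 0.906% and Sema6a from 1.41 ± 0.221% to 4.07 ± 0.416%, while Nrp1 was at 15.6 ± 2.60% and 17.2 ± 0.975%. By class, the 20 semaphorins held 28.1 ± 1.63% and 32.1 ± 1.26%, the 9 plexins 53.8 ± 1.76% and 48.1 ± 1.33%, and the 2 neuropilins 18.0 ± 2.69% and 19.8 ± 0.952%. Shares of a fixed total move together, since a lower share of Plxnb2 raises the others. In CPM per kilobase, the semaphorins summed to 58.9 ± 6.82 in CON and 59.9 ± 2.84 in MIA (± SD over 5 libraries). The plexins summed to 112 ± 8.58 and 89.6 ± 1.96, and the neuropilins to 37.5 ± 5.27 and 37.0 ± 2.30.

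**Figure D3:**
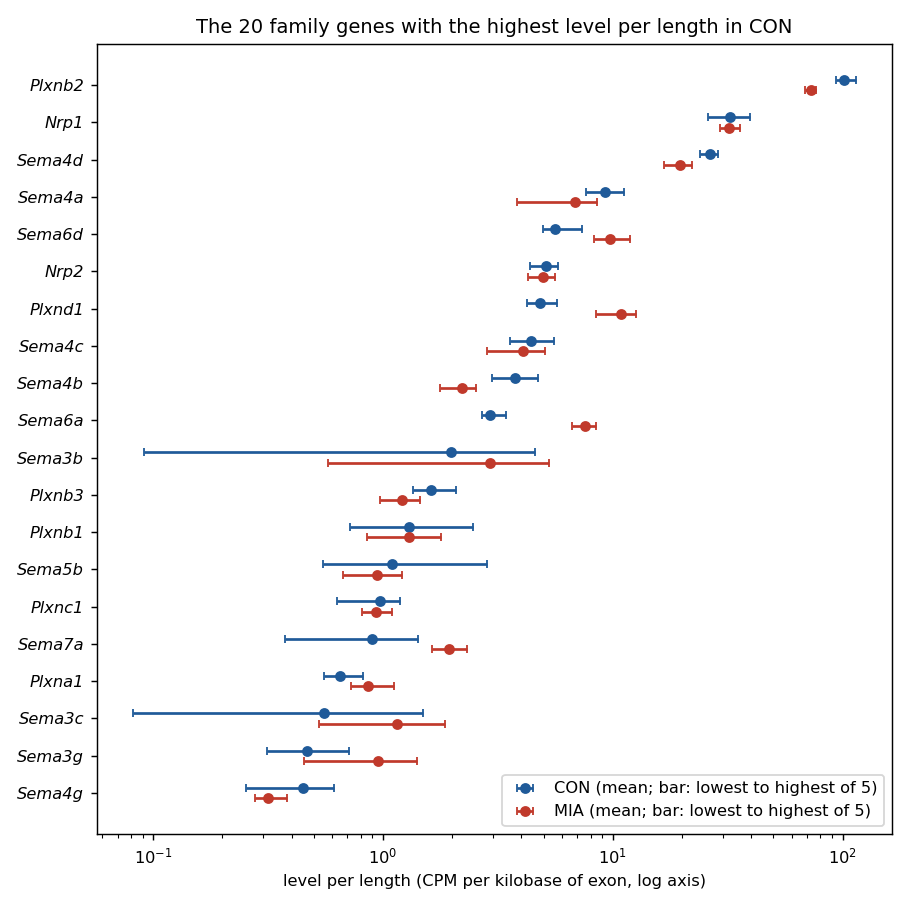
Level per length of the 20 semaphorin, plexin and neuropilin genes that rank highest in CON, in CPM per kilobase of exon on a log axis, with points for the mean and bars from the lowest to the highest of 5 CON (blue) and 5 MIA (red) libraries. Plxnb2 leads in both groups, and among these 20 genes the bars of Plxnd1, Sema6a, Sema6d, Sema7a, Plxnb2, Sema4d and Sema4b do not overlap between the groups.

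Among the 15 other semaphorins measured, 1 rose and 1 fell, where 5.75% of all genes tested rose and 4.58% fell. Sema6d, another class 6 semaphorin and a ligand of Plxna1, rose from 58.9 ± 10.7 to 102 ± 15.2 CPM (SD, n = 5 each), a log2 fold change of 0.79 ± 0.13 (SE), at an adjusted p of 0.00164 in edgeR. Sema4b, of the same class as Sema4d, fell from 21.1 ± 3.72 to 12.5 ± 1.63 CPM, a log2 fold change of −0.76 ± 0.15 (SE), at an adjusted p of 0.00458 in edgeR. Of the 6 other plexins, Plxna2, the receptor of Sema6a, rose from 7.16 ± 1.27 to 15.1 ± 2.54 CPM, by 1.07 ± 0.17 log2 units (SE), with an adjusted p in edgeR of 0.00145. These 3 calls held in each fit that left out a single library and with all 13 libraries. They were lost with all 13 except CON 1 and CON 2.

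**Figure D4:**
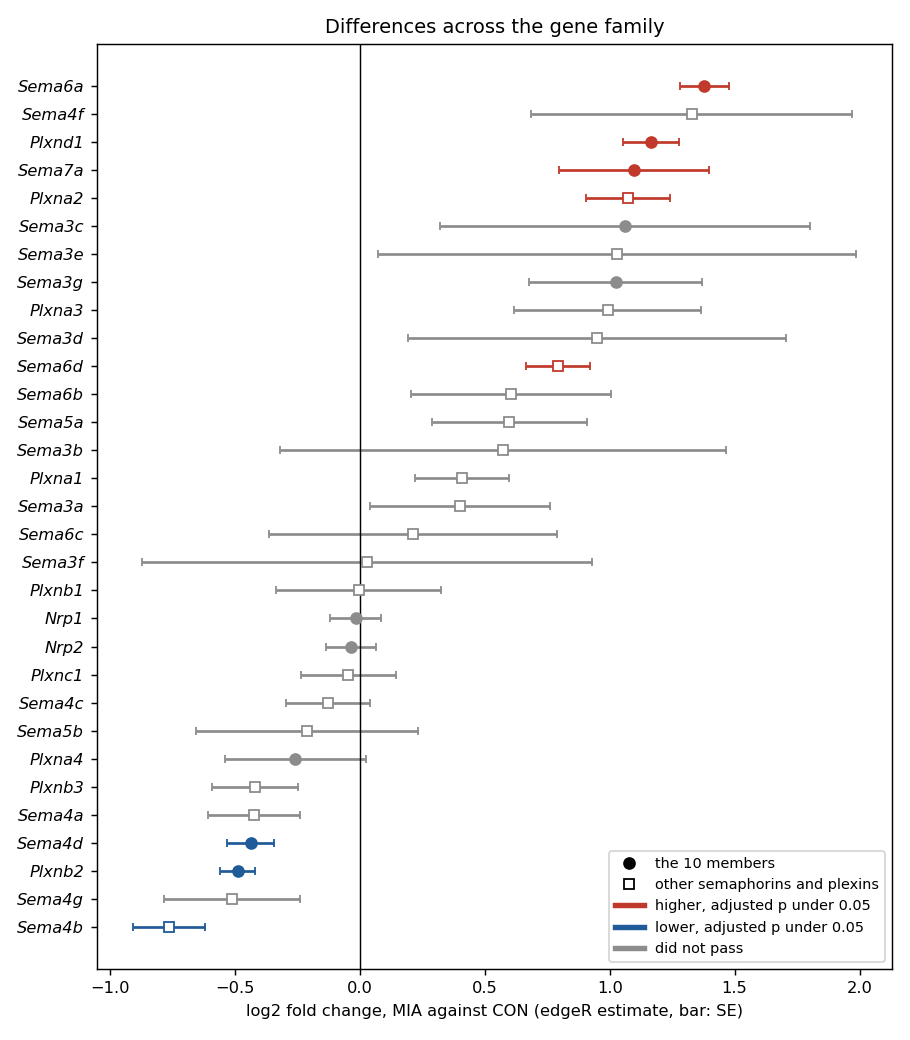
Log2 fold change of MIA against CON for the 31 semaphorin, plexin and neuropilin genes (points: edgeR estimate; bars: SE), with filled circles for the 10 members and open squares for the others, red for higher, blue for lower and grey for genes that did not pass. The values run from −0.76 for Sema4b to 1.38 for Sema6a, and both neuropilins sit at 0 within their SE.

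Of 8 tested co-receptors and other receptors, 2 rose, beside 5.75% of all genes tested. Itga1, which pairs with Itgb1 in an integrin that Sema7a binds, went from 63.3 ± 11.4 to 115 ± 24.8 CPM (SD, n = 5 each; edgeR adjusted p = 0.00516), and Erbb2, a receptor kinase that associates with class B plexins, from 7.96 ± 3.43 to 14.1 ± 2.27 CPM (edgeR adjusted p = 0.0493). With all 13 libraries neither was called. The call of Erbb2 was also lost in 9 of the 10 fits without a single library, CON 1 being the exception (edgeR adjusted p up to 0.118). Timd2, a receptor of Sema4a in immune cells, was too low to test.

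Of 24 cytoplasmic partners, 5 rose and 1 fell, beside 5.75% and 4.58% of all genes tested. Crmp1, Dpysl3 and Dpysl5 encode collapsin response mediator proteins, which relay semaphorin signals to the cytoskeleton of neurons. Crmp1 went from 14.4 ± 4.28 to 42.8 ± 9.10 CPM, Dpysl3 from 12.9 ± 3.45 to 25.3 ± 3.81 CPM and Dpysl5 from 9.18 ± 4.42 to 18.3 ± 3.92 CPM (SD, n = 5 each; edgeR adjusted p of 0.000650, 0.00338 and 0.0300). The neuronal marker mean, given above, rose in the same libraries, and its part in these values was not tested. For Dpysl2, the abundant member of that family, the means of 515 ± 57.9 and 497 ± 67.9 CPM did not differ past the threshold. Arhgef12, a guanine nucleotide exchange factor that binds class B plexins, went from 9.92 ± 1.39 to 15.5 ± 1.88 CPM (edgeR adjusted p = 0.0107), and Gsk3b, a kinase that acts on collapsin response mediator proteins, from 98.4 ± 10.5 to 120 ± 5.41 CPM (edgeR adjusted p = 0.0368). Fes, a myeloid tyrosine kinase linked to Plxna1, fell from 145 ± 23.4 to 109 ± 11.4 CPM (edgeR adjusted p = 0.0279).

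With all 13 libraries Dpysl3 (edgeR adjusted p = 0.0571), Dpysl5, Gsk3b and Fes were not called. When single libraries were left out, Gsk3b lost its call in 8 of 10 fits, all but those without CON 1 or MIA 5. Dpysl5 lost its call in 6 of the 10, without CON 2, CON 3, CON 4, CON 5, MIA 2 or MIA 4. Fes lost it in 5, without CON 3, CON 4, MIA 1, MIA 4 or MIA 5. The highest adjusted p in edgeR was 0.0911 for Gsk3b, 0.0840 for Dpysl5 and 0.0859 for Fes. The abundant actin regulators Cfl1, at 1116 ± 119 and 951 ± 142 CPM, and Rac1, at 875 ± 26.9 and 850 ± 53.9 CPM (SD, n = 5 each), did not pass. In all, 9 of the 53 tested genes beside the 10 members rose and 2 fell, where 5.75% of all genes tested rose and 4.58% fell. The median log2 fold change of the 53 was 0.41, against −0.0085 over all genes tested. The list was chosen with earlier results of these data known, so these values are a description of its genes only. With CON 1 and CON 2 left out of the retained libraries, these 11 calls all held in the same direction.

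Likeness of profiles was measured as the root-mean-square difference between log2 CPM profiles centred on their own mean, over all 13 libraries. Nearest to Sema6a were Cyyr1 (0.12 log2 units) and Slc22a8 (0.15), and nearest to Plxnd1 were Tspan18 (0.10) and Cd34 (0.11), where the median over all genes was 0.70 and 0.61. Nearest to Plxnb2 were Lyn (0.055) and Psap (0.069), and nearest to Sema4d Slc15a4 (0.066) and Slc35c2 (0.074), with medians of 0.36 for both. Nearest to Nrp1 were Nfe2l2 (0.077) and March7 (0.082), and to Nrp2 Alg3 (0.081) and Ddx41 (0.087), with medians of 0.31. Among the scarce genes, Sema7a, Sema3g and Sema3c had larger medians over all genes, while the median of Plxna4 lay below those of Sema6a and Plxnd1. The smallest differences were larger for all of the scarce genes. They were 0.20 for Sema7a (Kcnq1, then Carmil2 at 0.26; median 0.76) and 0.24 for Plxna4 (Myadml2, then Minar1 at 0.26; median 0.51). For Sema3g they were 0.28 (Shroom4 and Pakap; median 0.71), and for Sema3c 0.51 (Slit3, then Fam81a at 0.54; median 1.33).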

How the data were processed

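Per the labels' protocols, RNA of the bead-sorted cells was reverse-transcribed by a modified Smart-Seq2 method and tagmented with a kit that keeps no strand. The submitters' processing notes name STAR, RSEM and DESeq2 with neither version nor role; build and annotation: not given in the sources used here. The authors deposited unscaled expected counts, which are fractional estimates, for 55487 genes and 13 libraries; 20.6% of nonzero values were not whole, and all were rounded, by at most 0.5. Gene symbols were matched by Ensembl ID without the version (55141 matched). Reads had no molecular identifiers, so the limit that a count of 0 allows (3 counts, 0.0875 to 0.117 CPM) covers counting error only.

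The quasi-likelihood test of edgeR 4.0.16 (in R 4.3.3; low counts filtered by filterByExpr, TMM factors, robust dispersions) had group as its sole covariate and compared CON 1 to 5 against MIA 1 to 5, with Benjamini-Hochberg adjustment over 15511 genes and a threshold of 0.05. SE is |log2 fold change| over the root of F. CPM values use TMM over all 13 libraries, and log2 CPM a prior count of 2. Levels per length use the exon union of GENCODE M21. Promoter windows come from RefSeq (GRCm38.p6). The code was tested on simulated data.

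The members and gene lists were chosen with earlier results of these data known. Named beside the members were genes of the pathway list past the threshold (at most 12) and the 4 of highest mean CPM that did not pass; for each member the 2 genes of nearest profile were named. Plxnc1, Cd72, Plxnb1 and Sema3e, partners of members, and Timd2, a receptor of Sema4a, fall outside this rule and were named after their values were seen. Lists were other semaphorins, other plexins, co-receptors and cytoplasmic partners, and markers of endothelium, microglia, neurons, mural cells and fibroblasts, and tissue dissociation. Further marker lists (oligodendrocyte precursors, astrocytes, neutrophils and monocytes, border-associated macrophages, erythroid cells) had 1 of 5, 0 of 5, 0 of 5, 0 of 5 and 0 of 4 tested genes called, Pdgfra being the exception. In the same order, their mean log2 CPM in MIA differed from that in CON by 0.86, 0.26, −0.39, −0.09 and 2.27. The erythroid mean was lowest in CON 1 and CON 2, at 2.34 and 2.97. Alternatives were a replicate block, other libraries, scalings, filters, DESeq2 1.42.0 and limma-voom 3.58.1.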

Additional observations from a re-analysis of the deposited data

Results flagged for a closer look

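A library far from the other 4 of its group was found for 6 of 50 combinations of gene and group checked, where chance flags about 1 in 20. Sema6a was at 30.2 CPM in CON 4, the highest control, with the next at 25.4. Plxna4 was at 8.88 CPM in MIA 2, with the next MIA library at 4.96. Among the pathway genes, CON 1 was high for Sema6d (77.8 CPM, next 57.5) and Dpysl5 (17.0 CPM, next 7.96) and low for Cfl1 (910 CPM, next 1117), and MIA 5 was low for Gsk3b (110 CPM, next 121).

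Libraries marked as excluded entered no test between the groups in the main comparison, and several of their values lay above all 5 retained controls. For Sema6a these were CON 6 (52.9 CPM), MIA 6 (36.3 CPM) and MIA 7 (49.2 CPM). Plxnd1 was at 59.4, 50.6 and 57.0 CPM in the same libraries. Sema7a reached 6.90 CPM in CON 6 and 5.81 CPM in MIA 7, Sema3g reached 4.55 and 4.44 CPM in these, and Plxna4 reached 7.92 CPM in MIA 6. Of these libraries CON 6 carries the control label.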

How the results depend on the processing

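Sema6a, Plxnd1, Plxnb2 and Sema4d kept their direction and call in 19 of 20 alternatives each, the exception being all 13 libraries except CON 1 and CON 2, with the values given above. Sema7a kept its call in 11 of 19. Sema3g also passed with DESeq2 (adjusted p = 0.0261). Nrp1 and Nrp2 changed sign in 5 of 20 alternatives each, and passed in none. Scaling by total counts gave log2 fold changes of 0.048 for Nrp1 and 0.026 for Nrp2, and the strict filter (10 CPM in 5 libraries) gave 0.024 and 0.0030. In fits without a single library they ran from −0.089 to 0.062 for Nrp1 and from −0.089 to 0.012 for Nrp2. The cause was not tested. The strict filter left no value for Sema7a, Sema3c, Sema3g and Plxna4.

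With all 13 libraries the calls over all genes fell to 424 higher and 235 lower, and those of the pathway genes to 4 and 1. With all 13 except CON 1 and CON 2 they were 53 and 37 over all genes, 0 and 0 for the pathway genes, and 0 and 0 for the members. The cause was not tested. Fits without a single library called 672 to 1238 genes higher and 365 to 1025 lower, with 464 lower without CON 2, 382 without MIA 4 and 365 without MIA 5, and 1 to 2 pathway genes lower, 1 where Fes was lost. Scaling by total counts put 67.6% of calls on the higher side (1036 against 496), where TMM put 55.7% (892 against 710).

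Same-numbered CON and MIA libraries had deviation correlations of 0.058 to 0.302, not all over 0.1, so the numbers were not taken to pair them, and 1 number, 3, was the best match in both directions. The replicate block gave 900 higher and 624 lower genes and the same 3 higher and 2 lower members. Counts ran from 19 to 353 for Sema3c, from 39 to 188 for Sema3g and from 34 to 203 for Sema7a, and how far depth limits their precision was not tested.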
